A study of Rattus norvegicus with 6 samples.

Results

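Bile duct cells, or cholangiocytes, make part of the bile by secreting water and bicarbonate, and 9 genes of this secretion were followed through the 6 liver libraries of a study of rats with liver fibrosis. The genes were Sctr, Cftr, Car2, Slc4a2, Aqp1, Slc10a2, Slc5a1, Gpbar1 and Muc1. They were taken by symbol from a table of 16209 genes, and all 9 had a row. They were picked for their roles, and in part chosen by the same contrast, since earlier results of it were known, among them lower normalized reads of Sctr, Cftr and Car2 with ginkgetin, so their differences between groups are given as descriptions with no test.

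The ginkgetin group held 3 liver libraries from fibrotic rats that received the plant compound ginkgetin, a biflavone, at 10 mg/kg/day. The vehicle group held 3 liver libraries from fibrotic rats given vehicle. Both groups therefore carried the fibrosis, and healthy livers were not analysed here. Strain, sex, age and the length of treatment are not given in the labels, and the labels do not say that each library came from its own animal. The vehicle columns carry the letters TAA, which the labels do not explain. They were taken as vehicle because it is the only other group, and every direction here rests on that.

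In ductal secretion, the hormone secretin binds its receptor on the basolateral side of the cell and raises cyclic AMP. Cyclic AMP opens a chloride channel at the apical side, and an exchanger then trades the chloride in bile for bicarbonate, which carbonic anhydrase supplies. Water follows through aquaporins. The same cells take bile acids and glucose back from bile, sense bile acids at a surface receptor and carry a mucin coat.

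The libraries held 13372367 to 14933853 reads assigned to genes. Values are normalized reads, each a number of reads divided by 1 factor for the library, and log2 levels are log2(value + 1). Transcript lengths were not used, so levels are compared between samples and not between genes. The tissue label fits the marker Alb, the albumin gene of hepatocytes, at 2.89% to 12.1% of reads. Vehicle replicate 3 stood apart, with the lowest share of Alb reads, a mean centred log2 level of hepatocyte markers of -2.30 against -0.21 to 0.92 in the other 5 libraries, and stellate cell and myofibroblast markers at 2.52 against -1.32 to -0.05. In bulk tissue, fewer cells of a type and less RNA per cell cannot be told apart.

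Promoters of 8 of the 9 genes were found in RefSeq, all but that of Car2, as windows of 250 bases before to 50 bases after the table's start site in build GRCr8. Those of Sctr, Cftr and Aqp1 are shown because these genes had lower values together, and that of Slc4a2 because it did not. Capitals mark matches to any of 8 short motifs, searched on both strands. The cyclic AMP response element was searched as its core TGACG and as its full form TGACGTCA, the core lying inside the full form. Motifs of duct transcription factors were ATCAAT for the ONECUT family and ACAAAG for the SOX family. General promoter motifs were GGGCGG for the GC box and TATAAA for the TATA box. The cell cycle factor E2F was searched as TTGGCGC, and TEAD, the factor at the end of the Hippo pathway, as GGAATG.
Sctr, chr13:33680377-33680676, plus strand: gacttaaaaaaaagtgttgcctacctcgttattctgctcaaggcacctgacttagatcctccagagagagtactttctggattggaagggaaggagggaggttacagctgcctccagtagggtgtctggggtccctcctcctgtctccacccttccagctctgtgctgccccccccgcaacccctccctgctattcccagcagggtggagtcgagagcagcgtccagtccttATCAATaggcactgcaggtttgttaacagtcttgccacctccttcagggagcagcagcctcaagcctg
Cftr, chr4:47527379-47527678, plus strand: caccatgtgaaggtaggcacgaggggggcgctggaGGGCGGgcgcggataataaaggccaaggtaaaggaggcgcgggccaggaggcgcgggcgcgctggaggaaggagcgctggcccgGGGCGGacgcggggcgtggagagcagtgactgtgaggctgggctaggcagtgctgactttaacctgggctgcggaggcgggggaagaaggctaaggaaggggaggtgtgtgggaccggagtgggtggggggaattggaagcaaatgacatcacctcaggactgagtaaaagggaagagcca
Aqp1, chr4:85812534-85812833, plus strand: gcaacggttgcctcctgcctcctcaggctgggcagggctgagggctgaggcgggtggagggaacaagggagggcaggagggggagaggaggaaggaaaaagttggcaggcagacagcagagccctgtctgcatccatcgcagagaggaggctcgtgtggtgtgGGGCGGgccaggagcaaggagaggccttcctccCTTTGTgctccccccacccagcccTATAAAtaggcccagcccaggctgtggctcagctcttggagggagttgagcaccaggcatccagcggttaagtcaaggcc
Slc4a2, chr4:11645353-11645652, minus strand: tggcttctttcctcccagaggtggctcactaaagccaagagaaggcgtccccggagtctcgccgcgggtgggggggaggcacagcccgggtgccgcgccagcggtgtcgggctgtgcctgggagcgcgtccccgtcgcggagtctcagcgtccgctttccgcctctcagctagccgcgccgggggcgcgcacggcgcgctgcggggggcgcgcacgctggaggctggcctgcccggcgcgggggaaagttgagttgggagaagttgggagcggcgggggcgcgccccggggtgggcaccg
Positions count from the start site, negative before it. The Sctr window held the ONECUT motif at -18, and 4.28% of 12252 promoters of tested genes hold it. The Cftr window held GC boxes at -215 and -131, a motif of 57.4% of promoters. In the Aqp1 window the TATA box lay at -30 (7.82% of promoters hold it), beside a GC box at -87 and the SOX motif, on the other strand, at -54 (14% of promoters). The Slc4a2 window held none of the 8 motifs. The core of the cyclic AMP response element was in none of the 8 windows and in 28.7% of promoters (2.69% for the full form), and the E2F motif was in none and in 3.84%. The Muc1 window held a TATA box, a GC box and the TEAD motif (11.4% of promoters). The windows of Slc10a2, Slc5a1 and Gpbar1 held none. Those of Cftr, Slc4a2 and Muc1 lie wholly within the listed span of their gene. A match is a run of letters and not a bound site, and a missing match says nothing of the factor.

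Normalized reads of the secretion genes were lower in ginkgetin livers than in vehicle livers, except for the exchanger gene Slc4a2, which was lower only with equal library totals. Of the 9 genes, 8 had a lower mean log2 level with ginkgetin, where 51.4% of 14639 genes tested did. In 7 of the 9 every ginkgetin library lay below every vehicle library, where 16.1% of genes tested did. Their median log2 fold change, ginkgetin minus vehicle, was -1.94, beside -0.02 over all genes tested. Because the genes were chosen with this contrast in view, nothing is read from these counts. The limma fit across the whole table covered all 14639 genes tested, these 9 among them. It called 0.0137% of all genes (Benjamini-Hochberg adjusted p under 0.05), and no call is given for the 9. DESeq2 on recovered reads called 7.88% of 14016 genes with an adjusted p lower, and edgeR on the same reads called 0 of 14639, with 2915 at an unadjusted p under 0.05.

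**Figure D1:**
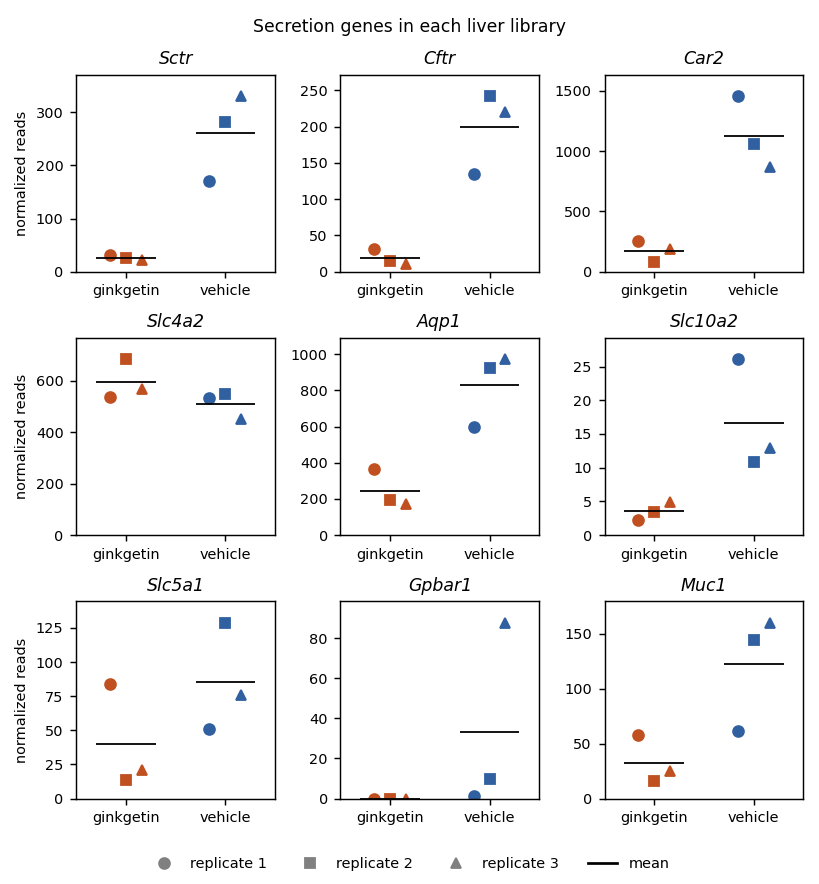
Normalized reads of the 9 secretion genes (y axis, linear from 0, its own scale in each panel) in 3 ginkgetin and 3 vehicle libraries, with 1 symbol per library and a bar for the mean. Sctr, Cftr, Car2, Aqp1, Slc10a2, Gpbar1 and Muc1 do not overlap between the groups, while Slc4a2 and Slc5a1 do. For Gpbar1 this rests on 1 read in vehicle replicate 1.

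Sctr encodes the secretin receptor, the entry point of the hormone signal. It stood at 31.0, 26.6 and 22.3 normalized reads in ginkgetin replicates 1 to 3, against 171, 283 and 331 in vehicle replicates 1 to 3. The ginkgetin libraries lay within 1.39-fold of each other and the vehicle libraries within 1.94-fold, with a wide gap between the groups. The log2 fold change was -3.21 (SE 0.366), a 9.24-fold lower level with ginkgetin, and it ran from -3.49 to -3.01 with any 1 library left out. These values rest on 69 reads over the ginkgetin libraries and 1024 over the vehicle libraries.

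Cftr encodes the chloride channel that cyclic AMP opens. It had 31.0, 15.04 and 9.90 normalized reads with ginkgetin, against 135, 243 and 220 with vehicle. The highest ginkgetin library was replicate 1 and the lowest vehicle library was also replicate 1, still far above it. The log2 fold change was -3.45 (SE 0.491), with a range of -3.88 to -3.10 with 1 library left out. Only 49 reads over the ginkgetin libraries support its low level, 8 of them in replicate 3, against 764 over the vehicle libraries.

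Car2 encodes carbonic anhydrase II, a cytosolic enzyme that forms bicarbonate. It stood at 255, 78.7 and 187 normalized reads in the ginkgetin libraries, against 1460, 1058 and 865 in the vehicle libraries. Its order within the vehicle group differed from that of Sctr and Aqp1, with replicate 1 the highest and replicate 3 the lowest. This made a log2 fold change of -2.82 (SE 0.429), and -2.99 without vehicle replicate 3. Car2 is also made by red cells, and of 9 tested red cell markers 4 had lower and 5 higher means with ginkgetin (median 0.44, from 0.11 to 0.62 with 1 library left out, and -0.07 with equal library totals). Epb42, a protein of the red cell membrane, was at 2.21, 6.94 and 2.47 normalized reads with ginkgetin, against 17.8, 54.1 and 30.1 with vehicle, without overlap (log2 fold change -2.83, SE 0.667, limma adjusted p = 0.101). The alpha globin gene Hba-a2 was at 10630, 6707 and 7542 normalized reads with ginkgetin, against 6102, 4830 and 5601 with vehicle, and Hbb at 4415, 3120 and 2637, against 2300, 1669 and 2871. The summed red cell level was 10060 to 15290 with ginkgetin, against 6757 to 8651 with vehicle, and nearly all of it came from the globin genes. The red cell markers thus went both ways, and their part in the Car2 difference was not tested. Reads of globin copies may be shared between near-identical genes.

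Slc4a2 encodes the anion exchanger AE2, which passes bicarbonate into bile in exchange for chloride and is also present in hepatocytes. It had 535, 684 and 567 normalized reads with ginkgetin, against 534, 548 and 449 with vehicle. The groups overlapped, since vehicle replicate 2 lay above ginkgetin replicate 1. The log2 fold change was 0.22 (SE 0.213), and it was -0.30 when libraries were scaled to equal totals, a scaling that moves the median of all genes to -0.53. With 1 library left out it ran from 0.11 to 0.29. Its spread within groups was small, with an SD of 0.18 log2 units with ginkgetin and 0.16 with vehicle. All 12 hepatocyte markers had higher means with ginkgetin (median log2 fold change 1.25, and 0.51 to 1.85 with 1 library left out, the lowest without vehicle replicate 3), with 0 past the threshold in limma. Their part in the Slc4a2 level was not tested.

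Aqp1 encodes a water channel of cholangiocytes that is also made by endothelium. It stood at 365, 192 and 169 normalized reads in the ginkgetin libraries, against 598, 926 and 973 in the vehicle libraries. The groups did not overlap, and replicate 1 was the nearest library of each group to the other group. The log2 fold change was -1.83 (SE 0.342), a 3.56-fold lower level, and it ran from -2.17 to -1.62 with 1 library left out. Among 9 tested endothelial markers 4 had lower and 5 higher means with ginkgetin. Their median was 0.01, from -0.28 to 0.26 with 1 library left out, and -0.51 with equal library totals. Their summed level ran from 2757 to 4380 with ginkgetin, against 3636 to 4901 with vehicle. Cdh5, the cadherin of endothelial junctions, stood at 472, 361 and 294, against 556, 463 and 1077, and Kdr, a receptor for vascular growth factor, at 1015, 956 and 635, against 718, 377 and 478. Vwf, the von Willebrand factor of larger vessels, had 515, 282 and 114 normalized reads with ginkgetin, against 800, 1130 and 1387 with vehicle (log2 fold change -2.07, SE 0.507, limma adjusted p = 0.108). The part of endothelial cells in the Aqp1 difference was not tested.

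Slc10a2 encodes the sodium-dependent transporter that takes bile acids up at the apical side of cholangiocytes. It was scarce, at 2.21, 3.47 and 4.95 normalized reads with ginkgetin, against 26.1, 10.8 and 12.9 with vehicle. The groups did not overlap, with 9 reads in all over the ginkgetin libraries and 56 over the vehicle libraries. The log2 fold change was -1.90 (SE 0.621), a size that hangs on the added 1, and -1.23 with quantile scaling. Vehicle replicate 1 held the highest value, and without it the log2 fold change was -1.54.

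Slc5a1 encodes the sodium-glucose cotransporter SGLT1, which retrieves glucose from bile. It had 84.0, 13.9 and 21.0 normalized reads with ginkgetin, against 51.0, 129 and 76.1 with vehicle. Ginkgetin replicate 1 lay above vehicle replicates 1 and 3, so the groups overlapped. Its log2 fold change was -1.41 (SE 0.690), and without ginkgetin replicate 1 it was -2.15. The ginkgetin libraries spread over 6.05-fold, more than those of any other secretion gene detected in all 3 of them.

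Gpbar1 encodes TGR5, a bile acid receptor of cholangiocytes and macrophages. No read fell on it in the 3 ginkgetin libraries, against 1.19, 9.98 and 87.8 normalized reads in the vehicle libraries. Most of the vehicle signal came from replicate 3, with 143 of 156 reads. Each ginkgetin library was set at 3 reads, the limit a count of 0 allows by counting error alone. The mean was then 9.42-fold lower with ginkgetin, and 1.60-fold lower without vehicle replicate 3. The vehicle mean was taken as exact, so these values do not bound the difference between groups. Vehicle replicate 1 held 1 read, below the 3 reads set for ginkgetin, and the lack of overlap rests on that read. Gpbar1 passed the filter on low values through the vehicle group alone, so it had to differ. Macrophage markers varied beside it, with 5 of 10 lower with ginkgetin at a median of -0.01 (0.57 without vehicle replicate 3 and -0.57 without vehicle replicate 2) and a summed level of 7039 to 12760 with ginkgetin, against 5161 to 16080 with vehicle. Csf1r, the receptor for macrophage growth factor, stood at 875, 737 and 530 normalized reads with ginkgetin, against 849, 891 and 3322 with vehicle, and Cd68, a macrophage lysosomal protein, at 477, 268 and 200, against 542, 372 and 1674. Both were highest in vehicle replicate 3, as Gpbar1 was. Clec4f, a lectin of Kupffer cells, went the other way, at 3300, 3589 and 2171, against 2726, 505 and 312 (log2 fold change 1.97, SE 0.722, limma adjusted p = 0.191). The scavenger receptor Marco stood at 1226, 839 and 174, against 286, 62.4 and 40.5 (2.64, SE 0.872, adjusted p = 0.169), and Cd5l, a protein that macrophages secrete, at 1820, 1783 and 887, against 1034, 425 and 528 (1.21, SE 0.416, adjusted p = 0.176). Clec4f and Marco were lowest in vehicle replicate 3, and the part of macrophages in the Gpbar1 difference was not tested.

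Muc1 encodes a membrane mucin of the apical surface. It stood at 57.5, 16.2 and 24.7 normalized reads in the ginkgetin libraries, against 61.7, 145 and 160 in the vehicle libraries. Ginkgetin replicate 1 and vehicle replicate 1 lay close together, at 52 reads each, and the groups were otherwise well apart. Its log2 fold change was -1.94 (SE 0.577), and it was -2.43 to -1.55 with 1 library left out.

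**Figure D2:**
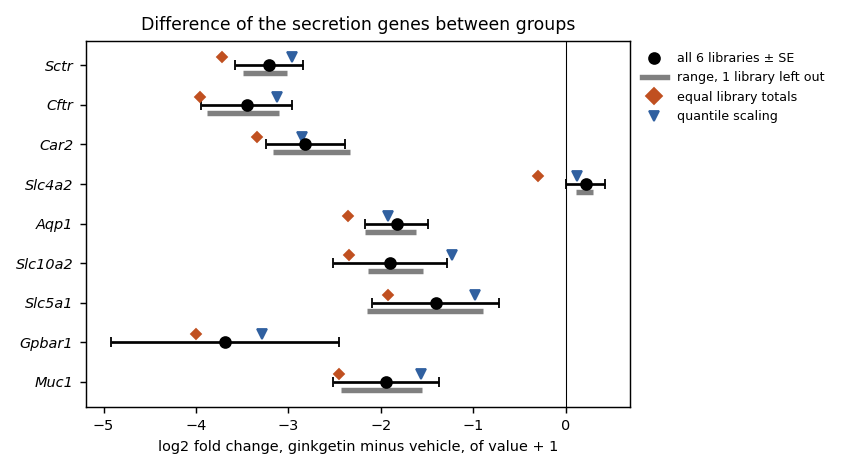
Log2 fold change, ginkgetin minus vehicle, of each secretion gene on the x axis, as the value over 6 libraries with its standard error, the range with 1 library left out (only ginkgetin libraries could be left out for Gpbar1), and the value under 2 other scalings. Sctr, Cftr and Car2 lie between -3.96 and -2.33 under the settings drawn, Slc4a2 lies between -0.30 and 0.29, and the Gpbar1 value hangs on the added 1.

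The secretion genes varied together over the 6 libraries to different degrees. Cftr and Aqp1 had a Pearson correlation of 0.989, Sctr and Cftr of 0.982 and Sctr and Aqp1 of 0.960, while Slc10a2 and Slc5a1 were at 0.337. Slc4a2 correlated negatively with each of the other 8 genes, from -0.828 with Muc1 to -0.482 with Slc10a2. These correlations span the 2 groups and describe 6 libraries only. Among 7316 other genes of above-median level, those most like the mean profile of the 9 genes were Tmem106a (correlation 0.998), Epcam (0.996), Klf3 (0.991), Cd276 (0.989) and Ltbp1 (0.988). Epcam, an adhesion protein of biliary epithelium, stood at 365, 259 and 233 normalized reads with ginkgetin, against 783, 1106 and 1277 with vehicle. Tmem106a stood at 144, 96.0 and 101 with ginkgetin, against 291, 393 and 406 with vehicle. The single most similar gene was Cd276 for Sctr (0.995), Ly6e for Cftr (0.994), H3f3b for Car2 (0.988), Acadsb for Slc4a2 (0.995), Pdlim1 for Aqp1 (0.997), Cd300lf for Slc10a2 (0.961), Smad3 for Slc5a1 (0.988), Rere for Gpbar1 (0.998) and Pctp for Muc1 (0.988).

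Markers of the ducts themselves were lower in the same libraries. Of 14 tested cholangiocyte and ductular markers, 13 had lower means with ginkgetin, 9 of them without overlap (16.1% of genes tested), at a median log2 fold change of -2.19. None of the 14 passed in limma (smallest adjusted p = 0.0668, Epcam). Without vehicle replicate 1, 5 passed, beside 753 of 14328 genes tested. Without vehicle replicate 3, 2 passed, beside 112 of 14332. With equal library totals 3 passed, beside 94 of 14639. DESeq2 on recovered reads called 8 of the 14 lower, beside 7.88% of genes with an adjusted p, and edgeR called 0. Krt19, a duct keratin, stood at 73.0, 15.04 and 14.8 normalized reads with ginkgetin, against 104, 141 and 293 with vehicle, and Krt7, another duct keratin, at 5.53, 16.2 and 1.24, against 106, 78.2 and 367. Sox9, a transcription factor of duct cells, stood at 39.8, 3.47 and 17.3, against 38.0, 86.5 and 72.4, and so overlapped. Onecut1, a transcription factor also made by hepatocytes, was the marker with a higher mean, at 24.3, 440 and 125 normalized reads, against 58.1, 107 and 25.8. Among other liver cells, stellate and myofibroblast markers had 6 of 8 lower (median -1.81, and -0.78 without vehicle replicate 3), and 0 of the 8 passed in limma. Of these markers, 2 passed without vehicle replicate 1, 2 without vehicle replicate 3 and 2 in DESeq2, beside the same all-gene counts and share as the duct markers. Their part in the lower secretion genes, and that of the ducts as a whole, was not tested.

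Within each library the level of a secretion gene can be set against the mean log2 level of the 14 duct markers. On this scale the mean of the 9 genes was -1.52 ± 0.18 with ginkgetin and -1.36 ± 0.18 with vehicle (SD, n = 3 each), and the groups overlapped. Without Gpbar1 and Slc4a2 the mean was -1.40 ± 0.24 with ginkgetin and -1.10 ± 0.39 with vehicle, again with overlap. Sctr lay at -2.08, -1.58 and -1.65 log2 units relative to the markers with ginkgetin, against -0.71, -0.40 and -0.78 with vehicle. Cftr lay at -2.08, -2.37 and -2.74, against -1.04, -0.62 and -1.37. Both were below the vehicle range in every ginkgetin library on this marker list. The list holds genes that other liver cells also make, among them Spp1, Krt8, Krt18, Onecut1 and Anxa4. Against 8 of the markers (Krt7, Krt19, Epcam, Sox9, Cldn4, Cldn7, Cd24 and Prom1), a choice made after the values were seen, both genes overlapped between groups, Sctr at -0.55, 0.37 and 0.19, against 0.52, 0.69 and 0.09, and Cftr at -0.55, -0.42 and -0.91, against 0.18, 0.47 and -0.50. The mean of the 9 genes turned round against these 8 markers, at 0.25 ± 0.28 with ginkgetin and -0.30 ± 0.32 with vehicle (SD, n = 3 each), a difference of 0.55 with no overlap between the groups. Whether Sctr, Cftr or the 9 genes together were lower or higher than the ducts' own markers therefore depended on the marker list.

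Slc4a2 and Aqp1 behaved otherwise on the same scale. Slc4a2 lay at 1.99, 3.05 and 2.96 log2 units relative to the 14 markers with ginkgetin, against 0.93, 0.55 and -0.34 with vehicle, and at 3.52, 5.001 and 4.80, against 2.16, 1.64 and 0.53, relative to the 8 markers. It was above the vehicle range in every ginkgetin library with either list. Slc4a2 itself overlapped between groups (log2 fold change 0.22), and the 14 markers had a median of -2.19. This separation therefore comes mostly from the lower markers and not from a change of Slc4a2. Aqp1 overlapped relative to the 14 markers, at 1.43, 1.22 and 1.23, against 1.09, 1.31 and 0.77. Relative to the 8 markers it lay at 2.97, 3.17 and 3.06 with ginkgetin, above 2.32, 2.40 and 1.64 with vehicle, although Aqp1 itself was lower with ginkgetin (log2 fold change -1.83). Car2, Slc10a2, Slc5a1, Gpbar1 and Muc1 overlapped between groups with both lists.

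**Figure D3:**
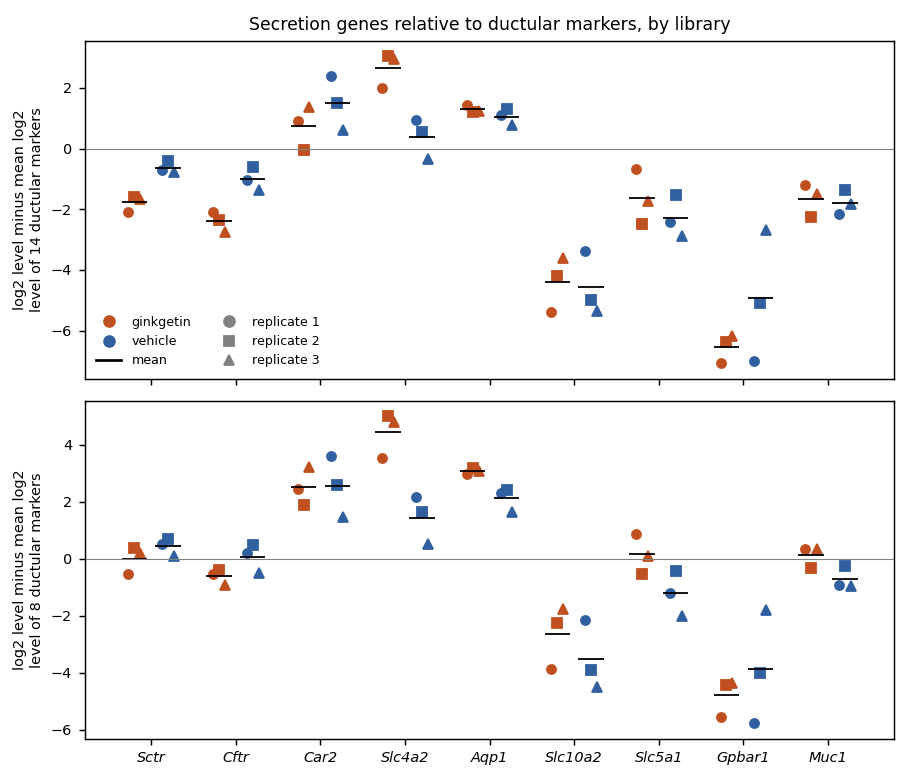
Log2 level of each secretion gene minus the mean log2 level of duct markers (y axis) in each ginkgetin and vehicle library, for 14 markers above and 8 markers below, with bars for group means. Slc4a2 is separated upwards in both panels, Aqp1 upwards in the lower panel only, and Sctr and Cftr downwards in the upper panel only.

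Genes that act beside the secretin receptor mostly had higher means with ginkgetin. Of 11 tested hormone and cyclic AMP genes, 2 had lower and 9 higher means (median 0.33, from 0.21 to 0.67 with 1 library left out, and -0.18 with equal library totals), and 0 passed in limma. Vipr2, a receptor for vasoactive intestinal peptide, stood at 2.21, 9.26 and 6.18 normalized reads with ginkgetin, against 15.4, 36.6 and 32.5 with vehicle (log2 fold change -2.15, SE 0.663, limma adjusted p = 0.148). Vipr1, the other receptor for that peptide, stood at 32.1, 97.2 and 34.6, against 26.1, 10.8 and 2.46 (2.24, SE 0.826, adjusted p = 0.192). The adenylyl cyclase Adcy9 stood at 189, 146 and 81.7, against 61.7, 59.9 and 34.4, without overlap (1.36, SE 0.428, adjusted p = 0.154). Rapgef4, a cyclic AMP sensor, stood at 406, 1022 and 674, against 294, 247 and 26.4 (2.38, SE 0.844, adjusted p = 0.184). Gnas, the stimulatory G protein that the receptor works through, was at 4999, 4073 and 4956, against 5114, 4016 and 4135. Sct, the secretin gene, had 0 reads in every ginkgetin library and in vehicle replicates 1 and 2, and 7.98 normalized reads in vehicle replicate 3. Sstr2, a receptor for the inhibitory hormone somatostatin, had 0 in all but vehicle replicate 1, at 1.19.

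Among channels, exchangers and pumps of duct cells, 9 of 13 tested genes had lower and 4 higher means with ginkgetin (median -0.40, and -0.70 without vehicle replicate 1 and -0.11 without vehicle replicate 3), 5 of them lower without overlap (16.1% of genes tested), and 0 passed in limma. Atp1b1, the beta subunit of the sodium pump, stood at 857, 757 and 501 normalized reads with ginkgetin, against 1674, 1638 and 1855 with vehicle (log2 fold change -1.32, SE 0.272, adjusted p = 0.0910). The potassium channel Kcnq1 stood at 16.6, 19.7 and 11.1, against 58.1, 88.2 and 63.2 (-2.09, SE 0.437, adjusted p = 0.0910). Kcnn4, a potassium channel opened by calcium, stood at 58.6, 32.4 and 26.0, against 65.3, 92.3 and 549, so its mean rested on vehicle replicate 3 (-1.99, SE 0.768, adjusted p = 0.206). The calcium-activated chloride channel Ano1, which offers a path beside Cftr, stood at 34.3, 20.8 and 21.0, against 42.7, 36.6 and 65.1 (-0.89, SE 0.449, adjusted p = 0.296). The bicarbonate cotransporter Slc4a4 overlapped, at 31.0, 152 and 90.3, against 34.4, 104 and 31.9.

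**Figure D4:**
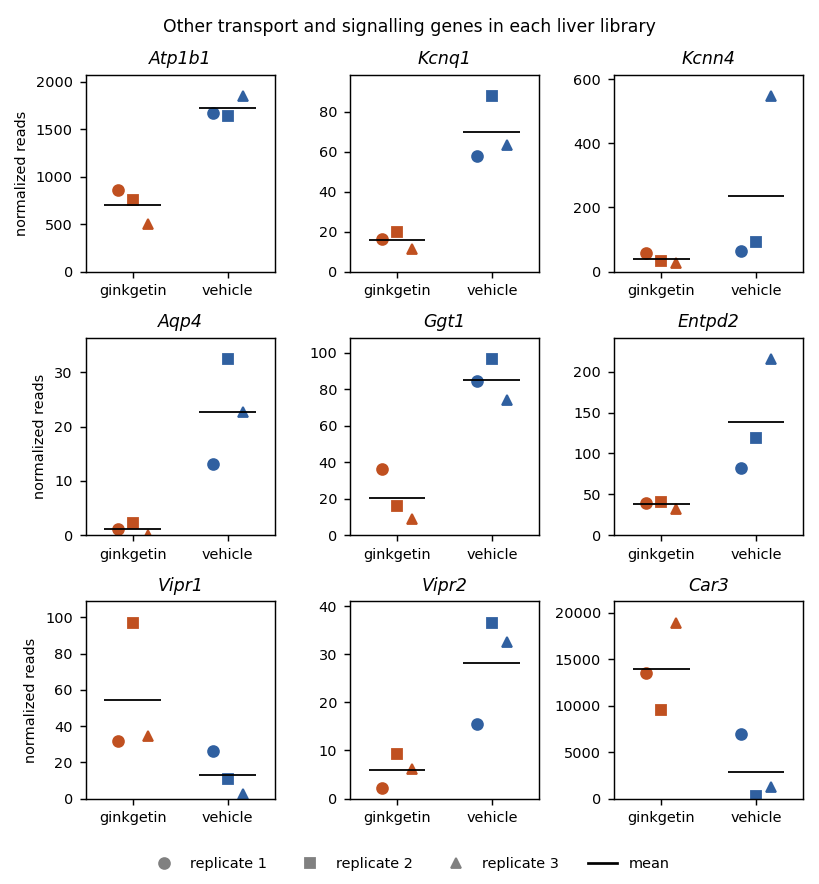
Normalized reads of 9 other transport and signalling genes (y axis, linear from 0, its own scale in each panel) in 3 ginkgetin and 3 vehicle libraries, with 1 symbol per library and a bar for the mean. Atp1b1, Kcnq1, Kcnn4, Aqp4, Ggt1, Entpd2 and Vipr2 are lower and Vipr1 and Car3 higher with ginkgetin without overlap, and none passed in limma. The 9 are a selection from lists in which other genes, such as Gnas, Slc4a4 and Itpr3, overlapped. Over all genes tested, 16.1% were lower and 1663 of 14639 higher without overlap.

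The relatives of Car2 and Aqp1 went several ways. Of 7 tested carbonic anhydrases, 1 had a lower and 6 had higher means with ginkgetin, and 0 passed in limma. Their median of 0.77 was 0.29 without ginkgetin replicate 1, 0.48 without vehicle replicate 3 and 0.25 with equal library totals. Car3, an enzyme of hepatocytes, stood at 13540, 9491 and 18940 normalized reads with ginkgetin, against 6990, 255 and 1266 with vehicle (log2 fold change 3.36, SE 1.04, adjusted p = 0.150). Car1, an enzyme of red cells, stood at 22.1, 56.7 and 47.0, against 5.93, 9.15 and 0 (3.28, SE 0.927, adjusted p = 0.130), and Car14, a membrane form, at 734, 701 and 1215, against 755, 637 and 259 (0.77, SE 0.425, adjusted p = 0.333). Of 7 tested aquaporins, 4 had lower and 3 higher means, and 0 passed in limma. Their median of -0.75 was -1.47 without ginkgetin replicate 1, -0.18 without ginkgetin replicate 3, -0.18 with values of at least 10, -1.27 with equal library totals and -0.35 in edgeR and DESeq2. Aqp4, a water channel of the basolateral side of duct cells, was scarce, at 1.11, 2.31 and 0 normalized reads with ginkgetin, against 13.1, 32.4 and 22.7 with vehicle (-3.55, SE 0.704, adjusted p = 0.0886). Aqp7, a channel for glycerol, was at 0, 6.94 and 0, against 21.4, 14.97 and 25.2 (-3.40, SE 0.904, adjusted p = 0.119). The hepatocyte channel Aqp9 stood at 2691, 2488 and 4185, against 2129, 1732 and 651 (1.18, SE 0.479, adjusted p = 0.224), and Aqp8, another hepatocyte channel, at 2415, 2511 and 2451, against 2380, 2165 and 1298.

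Genes for bile acid and glucose handling split as well, with 4 of 9 tested genes lower and 5 higher with ginkgetin (median 0.03, from -0.44 without vehicle replicate 1 to 0.25 without vehicle replicate 3). In limma 0 passed, against 3 without vehicle replicate 1, a setting that called 753 of 14328 genes tested. Slc10a1, the bile acid uptake transporter of hepatocytes and relative of Slc10a2, stood at 8014, 8763 and 9851 normalized reads with ginkgetin, against 5835, 2255 and 757 with vehicle (log2 fold change 2.04, SE 0.682, adjusted p = 0.170). Slc10a2 and Slc10a1 thus had lower and higher means in the same livers, each without overlap. Ggt1, a glutathione-degrading enzyme of the duct surface, stood at 36.5, 16.2 and 8.66, against 84.2, 96.5 and 74.3 (-2.22, SE 0.547, adjusted p = 0.108). Abcc3, a basolateral exporter of bile acid conjugates, stood at 79.6, 57.9 and 30.9, against 97.3, 358 and 177 (-1.79, SE 0.543, adjusted p = 0.145). Of the other basolateral exporter, Slc51a was scarce, at 1.11, 6.94 and 3.71 normalized reads, against 1.19, 1.66 and 11.7 (0.03, SE 0.899, adjusted p = 0.988), and Slc51b had reads in vehicle replicate 3 alone and was not tested.

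Sensing genes of the duct cell surface and cilium had 8 of 12 tested genes lower and 4 higher with ginkgetin, and 0 passed in limma. Their median of -0.22 ran from -0.41 without vehicle replicate 1 to 0.07 without vehicle replicate 2. It was 0.01 with quantile scaling and -0.74 with equal library totals. Entpd2, which degrades extracellular ATP, stood at 39.8, 40.5 and 32.2 normalized reads with ginkgetin, against 81.9, 119 and 215 with vehicle (log2 fold change -1.75, SE 0.425, adjusted p = 0.106). P2ry2, a receptor for ATP, stood at 303, 404 and 456, against 285, 216 and 62.0 (1.28, SE 0.527, adjusted p = 0.229). P2ry12, a receptor for ADP, stood at 7.74, 12.7 and 4.95, against 19.0, 15.8 and 68.8 (-1.68, SE 0.702, adjusted p = 0.233). Itpr3, the calcium release channel near the apical pole of duct cells, overlapped at 77.4, 23.1 and 39.6, against 49.8, 97.3 and 92.1. Other mucins and trefoil factors were near the limit of detection. Of the 3 tested, Muc6 had at most 5.79 normalized reads in any library (log2 fold change 1.002, limma adjusted p = 0.459), Muc20 at most 1.66 (-0.49, adjusted p = 0.735) and Tff3 at most 16.1 (-0.44, adjusted p = 0.748).

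**Figure D5:**
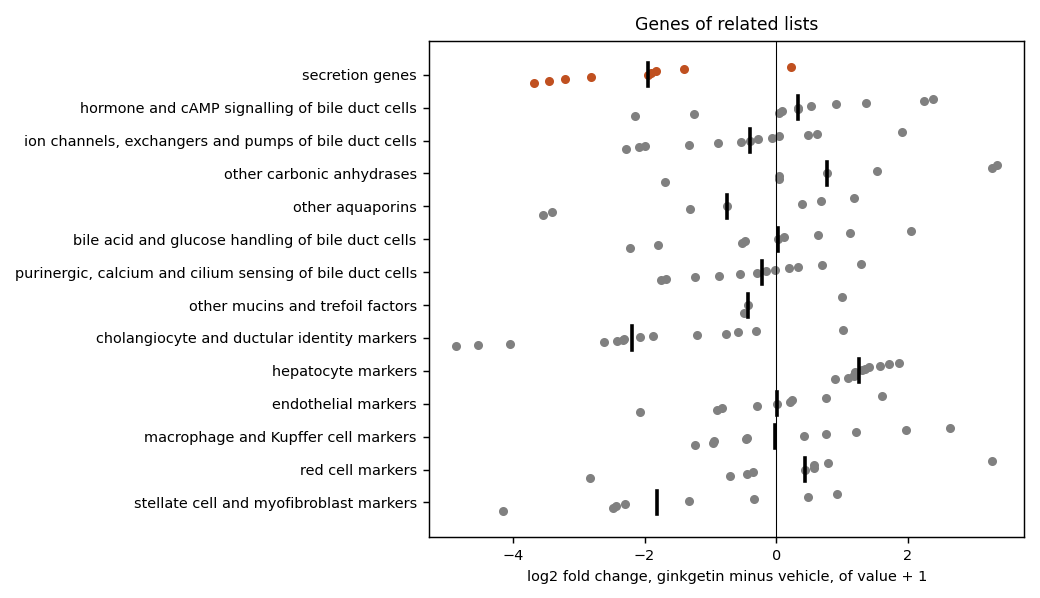
Log2 fold change, ginkgetin minus vehicle, of each tested gene (points) in the secretion genes and 13 related lists (rows), with a bar at the median of each list. The medians of the secretion genes (-1.94), the duct markers (-2.19) and the stellate cell and myofibroblast markers (-1.81) lie lowest, and that of the hepatocyte markers (1.25) highest.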

How the data were processed

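The 6 liver libraries were built with a SMARTER kit for mRNA, per the labels' protocols. The submitters' processing notes name the build mRatBN7.2, with aligner, counter, annotation and strandedness not given in the sources used here. Each deposited value is a signal, the read count divided by 1 unnamed factor per library, since in every library at least 99.6% of positive values were whole multiples of the smallest within 0.02. Reads recovered from the deposited values by division and rounding went into edgeR 4.0.16 and DESeq2 1.42.0 as alternatives. Columns were matched by name and number, and 0 columns were left unmapped. Of the row names, 23 had become dates.

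Genes were tested by limma 3.58.1 (run under R 4.3.3) with trend and robust moderation on log2(value + 1), over the 14639 genes reaching 1 in at least 3 libraries, with Benjamini-Hochberg adjustment at 0.05. Every adjusted p comes from it unless another tool is named. No 2 libraries were duplicates (smallest chi-square per degree of freedom 44.1). A p measures only the spread between these 6 samples, which may be technical. Reads of overlapping, antisense or near-identical genes may be mixed.

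The 9 genes and the other lists were chosen with earlier results of these data known. Named genes were the 9 secretion genes, at least the 3 with the smallest p of each pathway list, other genes of those lists, and the nearest profiles by Pearson correlation. Listed genes without a row or below the filter were not tested. Sequences are RefSeq, GRCr8, matched by symbol for 8 of 9 genes. Some genes of the lists are not reported here.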

Additional observations from a re-analysis of the deposited data

How the results depend on the processing

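The lower means of the secretion genes kept their direction over the 15 settings tried, from 7 to 9 genes lower, where Slc4a2 turned lower with equal library totals and Gpbar1 was not testable in 4 settings. Their median log2 fold change was -2.45 with equal library totals, a scaling that moves the median of all genes to -0.53, and -2.43 to -1.86 with 1 library left out. Calls were unstable. Against 2 genes called in limma, 94 were called with equal library totals, 5 with a pseudocount of 5, 1 with quantile scaling, 0 with the replicate block and 0 to 753 with 1 library left out. Leaving out vehicle replicate 1 gave 753, and leaving out vehicle replicate 3 gave 112. Using recovered reads, edgeR called 0 genes, and 2915 had an unadjusted p under 0.05 (2963 in limma). DESeq2 called 1380. It called 1 to 8 genes in every related list but that of other mucins and trefoil factors, where it called 0, and limma called 0 in each. A single DESeq2 call in a list of 7 to 12 tested genes is near its share over all genes, and nothing is read from it. The cause was not tested. Same-numbered libraries did not deviate together (correlations -0.16, 0.03 and -0.21, against at most 0.20 for unlike numbers). With so few libraries in each group, this check cannot exclude a pairing or batch shared by number. The mean of the secretion genes relative to the duct markers, a difference of -0.16, was 0.015 with a pseudocount of 5 and 0.010 with quantile scaling. It was 0.55 with 8 markers (no overlap between groups), and ran from -0.26 to -0.08 with 1 ginkgetin library left out. Gpbar1, which itself differed by -1.62 on this scale, dropped out of the mean in the other settings. These gave 0.025 with values of at least 10, and 0.15, 0.14 and -0.22 without vehicle replicates 1, 2 and 3. Their distance from -0.16 therefore also reflects the loss of Gpbar1. Fewer than 10 reads in every ginkgetin library limit Slc10a2 and Gpbar1, and 8 to 28 reads limit Cftr.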
